A study of Mus musculus with 2 samples.

Results

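Alveolar macrophages are the resident macrophages of the airspaces, where they take up surfactant, particles and dying cells. They depend on GM-CSF and on the nuclear receptor PPARγ, and they carry scavenger receptors, a loose family of surface proteins that bind modified lipoproteins, bacteria and cell debris. Here, 8 genes of this biology were followed through a mouse lung with breast cancer metastases. The resident alveolar macrophage genes were Chil3, Ear2, Marco, Plet1 and Pparg, and they were set against Cd5l, Msr1 and Cd36, which other macrophages or other cells also use. The 8 genes were chosen by symbol among the 32285 genes of the count tables, and all 8 had counts in both sections.

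The data were Visium spatial transcriptomics of 2 lung sections, 1 per condition, on which each capture spot takes up transcripts of several neighbouring cells. The metastatic section came from a tumour-bearing mouse of a model in which female Balb/c mice of 6 to 8 weeks received 1000000 4T1 cells in the mammary fat pad and were euthanized after 21 to 23 days. 4T1 is a mouse mammary carcinoma cell line that spreads to the lung from this site, so the animal carried a primary tumour as well as lung metastases. The control section was lung with no treatment, and its age and strain are not given separately in the labels. Both sections were mounted on 1 slide and permeabilized for 18 minutes. With 1 section per condition, differences of condition and of animal or library cannot be told apart, and no p-value is given. Levels are summed counts of a gene per 10000 summed counts of all genes (CP10k) with exact 95% Poisson intervals. Ratios carry the exact 95% interval of the split of counts. These intervals cover counting error only.

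The metastatic section was divided by clustering of its spots without the 8 genes and without macrophage genes. The core held 94 spots, with 1740451 counts and a median of 17675.5 per spot. The margin, within 200 µm of the core, held 89 spots with 1056396 counts (median 11069). An intermediate zone held 138 spots with 1875287 counts, and the far lung, over 500 µm from the core, 787 spots with 9980820 counts (median 10784). The control lung held 1888 spots with 20329126 counts (median 9643.5). 858 position barcodes were in both sections.

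The core was the cluster with the highest score of 4T1 minus lung tissue genes, so its low lung tissue genes (52.4 CP10k, against 2588 in the far lung) restate how it was chosen and do not check its label. The list of 4T1 cancer cell genes was not higher in the core (7.15 CP10k against 8.16 in the far lung), since Krt7 and Krt19, keratins that lung epithelium also makes, were lower there. Genes of growth and matrix breakdown that were looked up afterwards were higher in the core, with Myc at 3.15 CP10k against 0.184 and Mmp3 at 2.52 against 0.0441. The summed 4T1 list therefore gives no support to the label of the core. By gene the list was mixed. Of 10 genes with enough counts, 2 were past 2-fold above the far lung and 5 below, beside 22% and 20.4% of all genes. Those above were Hmga2 (ratio 25.4, 11.0 to 68.3, on 31 and 7 counts) and Ccnd1 (2.13, 1.90 to 2.37). The list was part of the score that chose the core, so these values do not check its label either. The core consisted of a group of 86 spots and a second group of 8 spots with a median of 2153.5 counts. That second group gave 1 count of Chil3, 1 of Msr1 and none of the other 6 genes, where 0 counts allow up to 1.38 CP10k. The core values below therefore rest on the first group. The margin and the intermediate zone rest on both groups, since 37 of the 89 margin spots lay around the second. Whether the second group is a metastasis was not tested. With the first group alone, the margin held 52 spots and the intermediate zone 44. In that margin 3 of the 8 genes were past 2-fold from the far lung, 1 above and 2 below. The control section also contained transcripts of cardiac-type muscle, with 26.0 CP10k of cardiac genes against 0.520 in the far lung. The labels do not name the tissue they came from, and this was not tested.

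In the far lung, away from the metastases, Marco, Cd5l and Msr1 were past 2-fold above the control lung, and the other 5 genes were within 2-fold of it. In the margin, Msr1 and Chil3 were past 2-fold above the far lung and Cd5l and Cd36 past 2-fold below it. In the core, the ratios of all 8 genes were past 2-fold from the far lung: Marco, Cd5l and Msr1 above it, and Chil3, Ear2, Plet1, Cd36 and, on 3 counts with an interval that includes equal levels, Pparg below it. With the core set by a marker score instead, 5 were past 2-fold, the same 3 above and Ear2 and Cd36 below. There the log2 ratio was -0.87 for Chil3 (-1.12 otherwise), -0.57 for Plet1 (-2.30) and 0.23 for Pparg (-1.29). Thus Marco lay on the other side from the resident genes Chil3, Ear2 and Plet1, and Cd36 from the other comparators. Pparg had too few counts to be placed on either side. These counts are to be read against all genes with at least 10 counts. Of 15784 such genes, 9.45% were past 2-fold between far and control lung (2.15% higher, 7.3% lower). Between margin and far lung the share was 32.7% (23.2% higher, 9.54% lower), and between core and far lung 42.5% (22% higher, 20.4% lower).

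The median log2 ratio of the 5 resident genes was 0.33 for far over control lung, 0.17 for margin over far lung and -1.29 for core over far lung. In each comparison this middle value was that of Pparg, the gene with fewest counts, and in the core the other 4 ranged from -2.30 to 2.75, so it describes the set poorly. The resident value for the margin had no settled sign, since it lay between -0.33 and 0.66 across the settings tried. For the 3 comparators it was 1.67, -1.37 and 2.95. The same medians over all genes tested were -0.19, 0.40 and 0.14. Relative to these medians, the members past 2-fold were the same in number for far over control lung and for core over far lung. In the margin there were 3 rather than 4, since Chil3 stood 0.67 above the median on the log2 scale. In tissue spots, fewer cells of a type and less RNA per cell cannot be told apart.

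**Figure D1:**
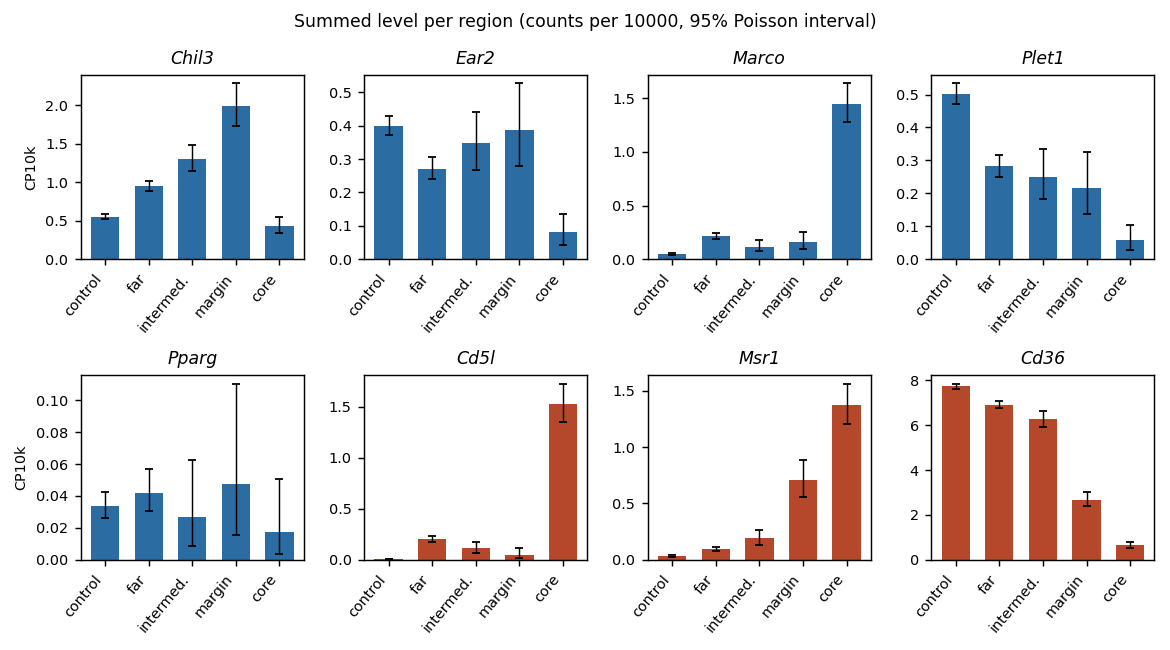
Bars show the summed level of each gene (CP10k, linear axis from 0, a different scale in each panel) in control lung, far lung, intermediate zone, margin and core, with 95% Poisson intervals (resident genes in blue, comparators in red). Marco, Cd5l and Msr1 are highest in the core, Chil3 is highest in the margin, and Plet1 and Cd36 are highest in the control lung.

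**Figure D2:**
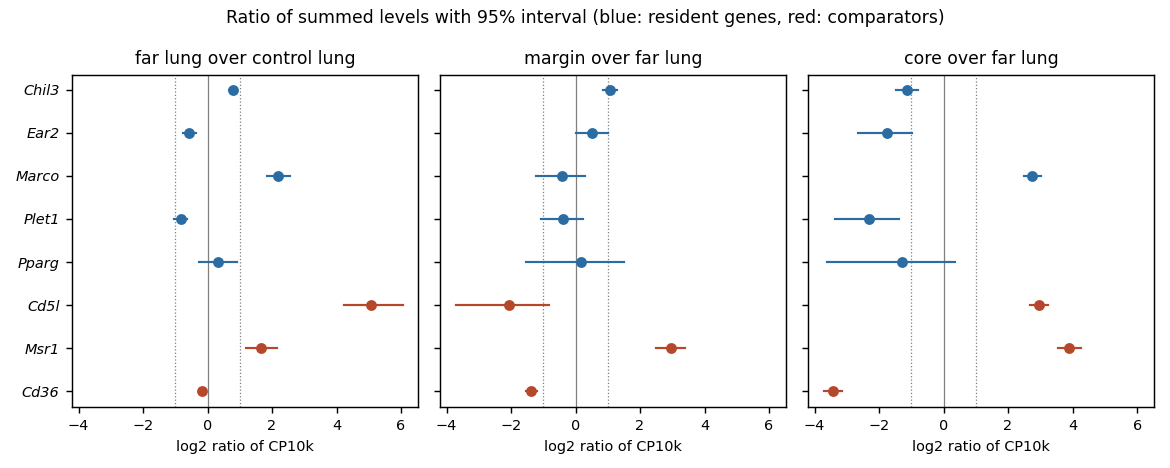
Points show the log2 ratio of CP10k for each gene in 3 comparisons, with the 95% interval of the split of counts, a solid line at equal levels and dotted lines at 2-fold. Cd5l stands furthest right for far over control lung, at 5.07, and in the core the 8 genes lie on both sides outside the dotted lines, although the intervals of Ear2, Chil3 and Pparg cross the line at 2-fold below.

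Chil3 (ENSMUSG00000040809, chr3:106147554-106167564 in GRCm38) encodes Ym1, a secreted chitinase-like protein and an abundant product of alveolar macrophages. Its level was 0.551 CP10k in the control lung (1120 counts), 0.949 in the far lung (947), 1.31 in the intermediate zone (245), 2.00 in the margin (211) and 0.437 in the core (76). It was thus graded, from the control lung up to the margin, and then low in the core. The ratio was 1.72 for far over control lung (1.58 to 1.88), 2.11 for margin over far lung (1.80 to 2.45) and 0.460 for core over far lung (0.359 to 0.582). By spot, the median was 0.704 CP10k in the far lung and 1.60 in the margin, and 0 in the control lung and in the core. In 100 µm rings around the core, Chil3 was at 1.45 CP10k in the first ring, 2.83 in the second (2.34 to 3.38) and 1.53 in the third. The margin level was 1.76 CP10k around the larger core group (1.47 to 2.08) and 2.60 around the smaller (2.05 to 3.24). Within the far lung, Chil3 was at 0.471 CP10k in the fifth of spots with least neutrophil transcripts and 1.43 in the fifth with most. With spots divided in the same way by alveolar type 2 cell transcripts Chil3 was at 0.389 and 1.33 CP10k, and by endothelial transcripts at 0.436 and 1.41. Ear2 was at 0.108 and 0.400 CP10k when divided by neutrophil transcripts, so neither the gene nor the cell type stood alone in this gradient. The neutrophil list itself was at 2.57 CP10k in the control lung and 25.7 in the far lung, and Chil3 is also known from immature neutrophils of the mouse. The part of neutrophils in the Chil3 level was not tested beyond leaving out the spots richest in them, which gave a log2 ratio of 0.65 for far over control lung in place of 0.78. The margin was no longer past 2-fold above the far lung in several settings: its log2 ratio of 1.07 was 0.57 with abundant genes such as Scgb1a1 taken out of the totals, 0.61 with a margin of 100 µm and 0.37 with the core set by a marker score. The related chitinase-like gene Chil1 had a similar order of levels, with 0.534 CP10k in the control lung, 0.724 in the far lung, 2.04 in the margin (2.81 times the far lung) and 0.552 in the core. Chil4, whose sequence is close to that of Chil3, had 1 count in the far lung and none in the other regions.

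Ear2 (ENSMUSG00000072596, chr14:44102654-44103531) encodes a ribonuclease of the eosinophil-associated family that alveolar macrophages also express. It had 0.399 CP10k in the control lung (812 counts), 0.271 in the far lung (270), 0.388 in the margin (41) and 0.0804 in the core (14). The far lung was below the control lung (ratio 0.677, 0.588 to 0.778) and the core below the far lung (0.297, 0.160 to 0.508). The margin was 1.43 times the far lung (1.01 to 2.00), but this direction did not hold in every setting: the log2 ratio was 0.52, against -0.19 with spots thinned to 5000 counts and -0.017 without airway-rich spots. Ear2 was found where alveolar epithelium was. In the fifth of spots with least transcripts of alveolar type 2 cells, the surfactant-producing epithelium, it was at 0.160 CP10k in the control lung and 0.132 in the far lung, and in the fifth with most at 0.579 and 0.429. The nearly identical genes Ear1 and Ear10 can share reads with Ear2, so the division of counts among them is uncertain. Ear1 was also lower in the far lung than in the control lung (123 and 456 counts, ratio 0.549) and Ear10 had a ratio of 0.856 (0.717 to 1.02). Ear6 went the other way, with 104 and 126 counts and a ratio of 1.68 (1.28 to 2.20). In the core, Ear1, Ear10 and Ear6 had 7, 6 and 2 counts. The defining eosinophil genes Epx and Prg2 had no count in the control lung and 1 each in the far lung.

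Plet1 (ENSMUSG00000032068, chr9:50494525-50505639) encodes a surface protein anchored in the membrane by a lipid and is used as a marker of alveolar macrophages, though airway epithelium also makes it. Its level was highest in the control lung and lower in each region closer to the metastasis, with 0.502 CP10k (1021 counts), 0.283 in the far lung (282), 0.251 in the intermediate zone (47), 0.218 in the margin (23) and 0.0575 in the core (10). The far lung was at 0.563 times the control lung (0.491 to 0.642) and the core at 0.203 times the far lung (0.0965 to 0.380). The intermediate zone, the margin and the far lung did not differ beyond their counting intervals. Plet1 was higher where airway transcripts were, unlike Chil3 and Ear2. In the control lung it was at 0.443 CP10k in the fifth of spots with least airway transcripts and 0.623 in the fifth with most, while Chil3 went from 0.629 to 0.213 and Ear2 from 0.487 to 0.163. The genes most like it over spots were Cbr2, Cyp2a5 and Wfdc2 in the control section and Cbr2, Zmynd10 and Ccdc17 in the metastatic section, all with Pearson correlations under 0.2 (0.16 to 0.18). Cbr2 is a carbonyl reductase of club cells.

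Pparg (ENSMUSG00000000440, chr6:115360879-115490404) encodes PPARγ, the nuclear receptor that alveolar macrophages need for their differentiation and lipid handling. It was sparse, with 68 counts in the control lung, 42 in the far lung, 5 in the intermediate zone, 5 in the margin and 3 in the core. No difference was detectable at this depth: the ratio was 1.26 for far over control lung (0.835 to 1.88), 1.12 for margin over far lung (0.347 to 2.84) and 0.410 for core over far lung (0.0812 to 1.28). Adipocytes, which also express it, gave 1.69 CP10k of their marker genes in the control lung and 0.123 in the far lung.

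Marco (ENSMUSG00000026390, chr1:120474538-120505024) encodes a class A scavenger receptor that binds bacteria and inhaled particles. Cd5l (ENSMUSG00000015854, chr3:87357881-87371074) encodes AIM, a protein secreted by tissue macrophages and a target of the LXR receptors. They are shown together because their counts lay in the same few spots. Below are the 250 bases before each gene's start, from RefSeq on GRCm38.p6 and written 5′ to 3′ on the gene's strand. The capitals mark GAGGAA or its reverse complement, the core of the motif bound by PU.1, a transcription factor of macrophages. For Marco this is chr1:120505025-120505274 (minus strand) and for Cd5l chr3:87357631-87357880 (plus strand).
Marco: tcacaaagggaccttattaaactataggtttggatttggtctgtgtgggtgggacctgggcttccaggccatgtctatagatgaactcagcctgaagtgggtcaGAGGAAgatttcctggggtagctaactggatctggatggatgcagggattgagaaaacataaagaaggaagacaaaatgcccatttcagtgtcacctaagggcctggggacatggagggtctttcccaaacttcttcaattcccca
Cd5l: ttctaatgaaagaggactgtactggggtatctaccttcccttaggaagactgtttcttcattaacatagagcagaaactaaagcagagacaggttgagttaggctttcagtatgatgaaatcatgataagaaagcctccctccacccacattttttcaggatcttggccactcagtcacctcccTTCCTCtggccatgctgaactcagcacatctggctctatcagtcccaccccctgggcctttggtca

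These letters occurred on either strand in 23.3% of 32851 such windows, so a match is a description and not a binding site. Of the 8 genes, 7 had an entry, with 9 windows in all, and 3 windows held the motif (1 each of Marco, Cd5l and Pparg). Another 4 motifs were searched on both strands, and none of the 5 contains another. AGATAA is bound by factors of the GATA family, TGCTGAC is the MAF motif, TGANTCA the AP-1 motif, and the direct repeat DR1 is that of PPARγ. AGATAA was in the window of Chil3 (9.99% of all windows) and TGANTCA in that of Plet1 (6.75% of all windows). The MAF and PPAR motifs were in none of the 9 windows, against 3.81% and 0.0335% of all windows.

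Marco had 0.0472 CP10k in the control lung (96 counts), 0.215 in the far lung (215), 0.117 in the intermediate zone (22), 0.161 in the margin (17) and 1.45 in the core (252). Cd5l was almost absent from the control lung, with 12 counts among 1888 spots (0.00590 CP10k). It was at 0.198 CP10k in the far lung (198 counts), 0.112 in the intermediate zone (21), 0.0473 in the margin (5) and 1.53 in the core (267). Both genes were highest in the core and above the control lung in every other region, with a margin ratio over control lung of 3.41 for Marco (1.91 to 5.75) and 8.02 for Cd5l (2.21 to 24.5, on 5 counts). Between far and control lung the ratio was 4.56 for Marco (3.57 to 5.86) and 33.6 for Cd5l (18.8 to 66.1). Between core and far lung it was 6.72 for Marco (5.58 to 8.10) and 7.73 for Cd5l (6.41 to 9.34). In the margin Cd5l was at 0.239 times the far lung (0.0766 to 0.566), while for Marco no difference from the far lung was detectable (0.747, 0.427 to 1.22).

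The regional levels of both genes rested on few spots. In the core, 3 of 94 spots held at least 50% of the counts of each gene, and in the far lung 5 of 787 spots did. A total of 16 spots held at least 5 counts of Marco and at least 5 of Cd5l, a limit set after seeing the values: 9 in the core, 6 in the far lung and 1 in the intermediate zone. In the spots just inside this limit (2 spots) the lower of the 2 counts was 5, and just outside it (1 spot) it was 4. No control spot came near it, where the highest count in a spot was 3 for each gene. The 16 spots held 69.4% of the Marco counts of the section (65.1 to 73.4, exact binomial interval) and 70.5% of the Cd5l counts (66.2 to 74.5), but 20% of the Msr1 counts. In the core they held 90.1% of Marco and 89.5% of Cd5l, and in the far lung 54.9% and 51.0%. A single far-lung spot, 854 µm from the core, gave 74 counts of Marco and 56 of Cd5l.

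Without these 16 spots, Marco remained at 0.163 CP10k in the rest of the core and 0.098 in the rest of the far lung, and Cd5l at 0.182 and 0.098. The log2 ratio of core over far lung then was 0.73 for Marco and 0.90 for Cd5l, in place of 2.75 and 2.95, so neither was past 2-fold any longer. For far over control lung it was 1.05 for Marco and 4.05 for Cd5l, in place of 2.19 and 5.07. Thus Cd5l stood far above the control level also in far-lung spots outside this group, while Marco was then only just past 2-fold. Without the single far-lung spot alone, the log2 ratio of far over control lung was 1.58 for Marco and 4.59 for Cd5l.

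**Figure D3:**
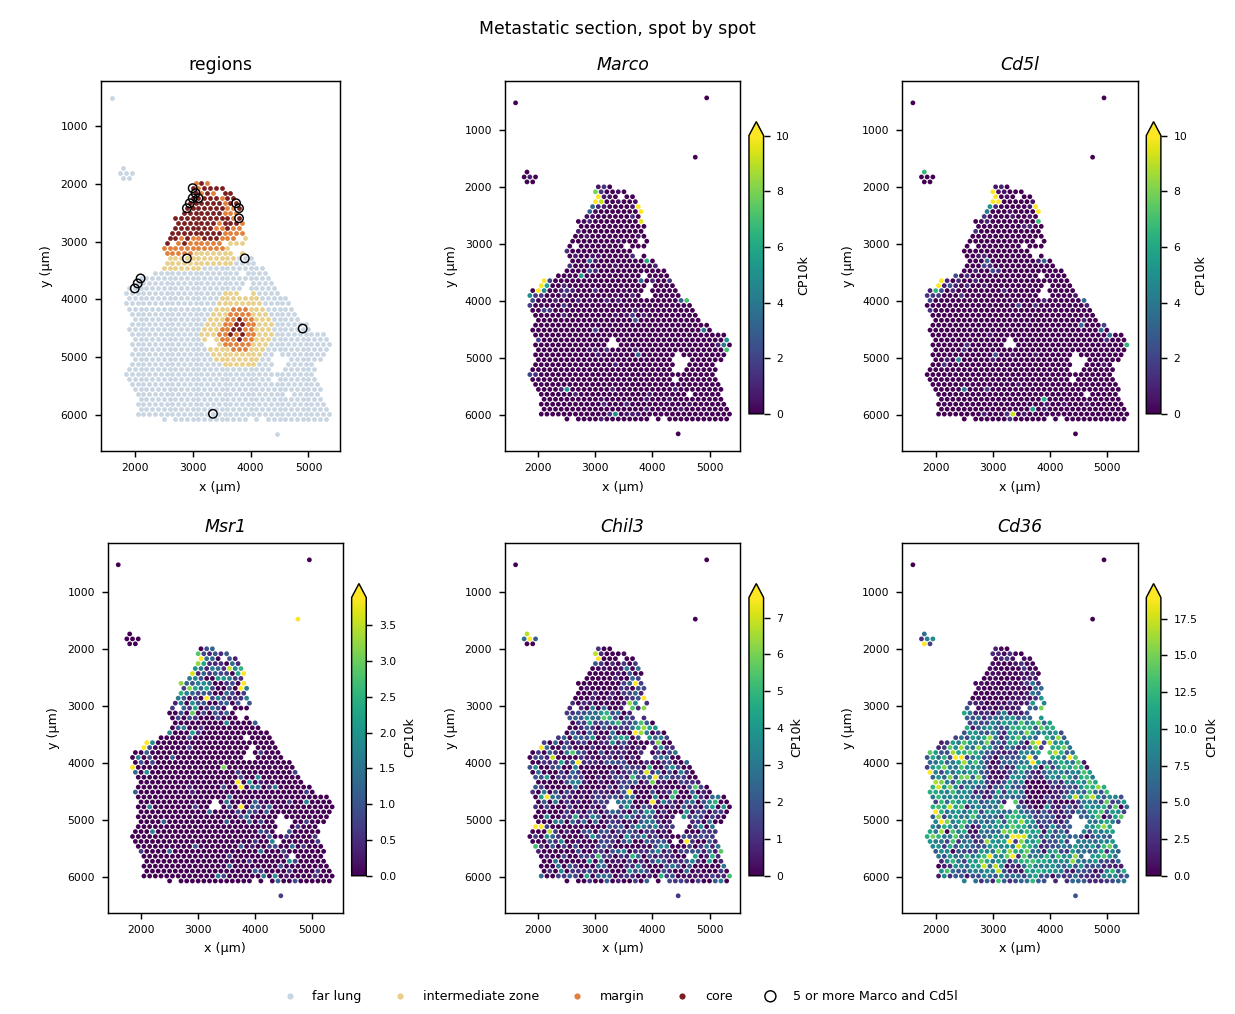
Each dot is a spot of the metastatic section at its array position (µm), coloured by region in the first panel (black circles: the 16 spots with at least 5 counts of both Marco and Cd5l; 2 spots in no region are not drawn there) and by CP10k of each gene in the others, with the colour scale capped at 10 for Marco and Cd5l and at the 99th percentile for the rest. Marco and Cd5l lie mostly in small patches at the edge of the drawn spots, Msr1 over the whole upper core, and Chil3 and Cd36 mainly outside the core.

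The spots rich in Marco and Cd5l mostly had fewer than 6 neighbouring spots, and such spots are called border spots here. Of the 9 in the core, 8 had fewer than 6 neighbouring spots (88.9%, exact interval 51.8 to 99.7), against 17 of the other 85 core spots (20%, 12.1 to 30.1). In the far lung, 4 of 6 did (66.7%, 22.3 to 95.7), against 150 of 781 (19.2%, 16.5 to 22.1). These intervals treat spots as independent draws, although the rich spots share a section and were selected by their counts. The intervals are therefore likely too narrow. Whether border spots lay at the outer edge of the tissue, at a hole or at the edge of the capture area was not tested. The rich core spots had a median of 21999 counts and the other core spots 17089, so their totals were not low.

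Other macrophage genes were found in the same spots, as a description, since the spots were selected by their counts. Alox15, a lipoxygenase of resident macrophages of the serous cavities, was at 5.50 CP10k in the rich core spots and 0.065 in the other core spots. Prg4 was at 5.55 and 0.098, the coagulation factor genes F10 and F5 at 2.24 and 0.078 and at 1.95 and 0.007, and Timd4, a receptor for phosphatidylserine, at 1.17 and 0.156. These genes are also known from serous cavity macrophages, and were looked up after the values had been seen. Arg1 was at 6.13 and 0.417, the ficolin gene Fcna at 5.21 and 0.775, and Adgre1, which encodes F4/80, at 3.70 and 0.215. Gata6, the defining transcription factor of the large serous cavity macrophage, gave only 3 counts in the 9 spots. Its level there was 0.146 CP10k (0.030 to 0.426), against 0.046 in the other core spots (0.018 to 0.094), and these intervals overlap. Gata6 was at 0.244 CP10k in the far lung and 0.269 in the control lung, so it was not particular to these spots. The alveolar macrophage markers had few counts in the 9 rich core spots: Siglecf had 0 counts, which allow up to 0.146 CP10k, Ear2 had 1, Plet1 2 and Pparg 1. Ear2 was at 0.049 CP10k against 0.085 in the other core spots, Plet1 at 0.097 against 0.052 and Pparg at 0.049 against 0.013. At this depth their levels in the 2 sets of core spots could not be told apart. Chil3 was at 2.04 CP10k in the rich core spots and 0.222 in the other core spots, though 3 of the 9 had no count of it.

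In the 6 rich far-lung spots, Alox15 was at 5.96 CP10k, Prg4 at 5.59, Arg1 at 5.71 and Fcna at 4.10. Siglecf again had no count, which allows up to 0.373 CP10k, above the 0.024 of the other far-lung spots. Ear2 and Plet1 were at 0.248 CP10k each, against 0.271 and 0.283 in those other spots. The spot with 74 counts of Marco gave 30 of the 48 Alox15 counts and 29 of the 46 Arg1 counts, and 2 of the 6 spots had no Alox15 and 1 count of Prg4 each. Other genes differed from the rich core spots, with Cd36 at 5.34 CP10k against 0.730 and C1qa at 2.36 against 7.25. They also contained mesothelial transcripts, with Msln at 2.48 CP10k against 0.226 in the other far-lung spots and Upk3b at 1.37 against 0.089. The other border spots of the far lung had Msln at 0.910 and Upk3b at 0.478, and the part of border position in this contrast was not tested. In the core, Upk3b had 0 counts in the rich spots and Msln was at 0.486 against 0.287, or 0.660 in the other border spots of the core. The acute phase gene Saa3 was at 68.2 CP10k in the rich core spots, 13.0 in the other core spots, 52.2 in the rich far-lung spots and 1.08 in the other far-lung spots. The labels do not name the cells of these spots, and none is named here.

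**Figure D4:**
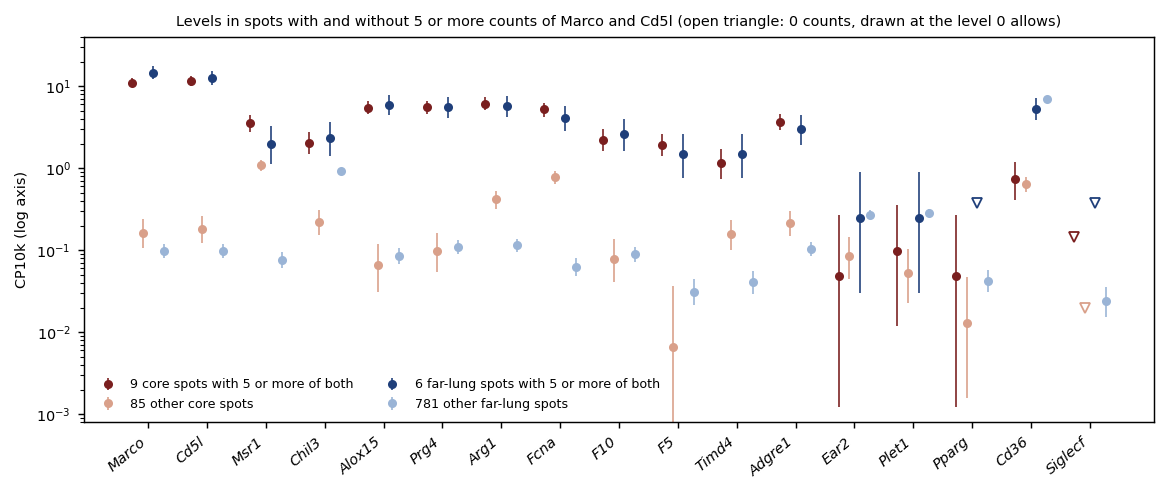
Points show the CP10k (log axis) of 17 genes with 95% Poisson intervals in 4 sets of spots: core and far-lung spots with at least 5 counts of both Marco and Cd5l, and the remaining core and far-lung spots. Alox15, Prg4, Arg1, Fcna, F10, F5, Timd4 and Adgre1 are higher in the rich spots of both regions. Ear2, Plet1, Pparg and Siglecf have few or no counts in the rich spots, too few to tell their levels from those of the remaining spots.

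In the metastatic section the genes most like Marco were Cd5l (Pearson r of 0.68), Alox15 (0.63) and Prg4 (0.56), and those most like Cd5l were Alox15 (0.70), Marco (0.68) and Prg4 (0.64), over 1110 spots that share a library. Within the 94 core spots, Marco and Cd5l correlated at 0.96. Among the far-lung spots the value was 0.55, and 0.27 without the rich spots. The genes most like Chil3 were Lyz2 (0.33), Sftpc and Lyz1, and the first gene like Ear2 was Chil3 (0.25 in the metastatic and 0.21 in the control section). Within the core the order was different, with 0.53 for Chil3 and Marco, 0.53 for Chil3 and Cd5l, and 0.024 for Chil3 and Ear2. In sparse counts such weak values carry little.

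Msr1 (ENSMUSG00000025044, chr8:39543232-39642750) encodes the class A scavenger receptor for modified low-density lipoprotein, found on macrophages in many tissues. It was the only one of the 8 genes that was higher in each region from the control lung to the core. Its level was 0.0290 CP10k in the control lung (59 counts), 0.0922 in the far lung (92), 0.192 in the intermediate zone (36), 0.710 in the margin (75) and 1.38 in the core (240). The ratio was 3.18 for far over control lung (2.27 to 4.48), 7.70 for margin over far lung (5.60 to 10.6) and 15.0 for core over far lung (11.7 to 19.2). In 100 µm rings outward from the core it was at 0.865, 0.475, 0.209 and 0.169 CP10k. Unlike Marco and Cd5l, Msr1 was spread over the core: 17 core spots were needed to hold 50% of its counts. The median core spot had 0.972 CP10k (quartiles 0.425 and 1.70), the median margin spot 0.478, and the median far-lung spot none. Without the 16 spots rich in Marco and Cd5l the log2 ratio of core over far lung was 3.83, in place of 3.90. Around the larger core group the margin was at 0.741 CP10k (0.559 to 0.962) and around the smaller at 0.633 (0.381 to 0.988), which do not differ beyond counting error. The genes most like Msr1 over spots were the ribosomal protein genes Rps26, Rpl23 and Rps20 (0.47 to 0.48), which were not followed further.

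Cd36 (ENSMUSG00000002944, chr5:17781690-17888959) encodes a class B scavenger receptor that takes up fatty acids and oxidized lipoproteins and is expressed by capillary endothelium as well as macrophages. It had 7.73 CP10k in the control lung (15722 counts), 6.92 in the far lung (6908), 6.28 in the intermediate zone (1178), 2.68 in the margin (283) and 0.649 in the core (113). The order was thus the opposite of that of Msr1. The ratio was 0.895 for far over control lung (0.870 to 0.921), 0.387 for margin over far lung (0.342 to 0.436) and 0.0938 for core over far lung (0.0772 to 0.113). The difference between far and control lung was small, and its direction depended on the core definition (a log2 ratio of -0.16, and 0.066 with the core set by the marker score).

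Cd36 was higher where capillary endothelial transcripts were. In the control lung it was at 2.79 CP10k in the fifth of spots with least endothelial transcripts and 12.1 in the fifth with most, and in the far lung at 2.65 and 11.5. The endothelial list itself was at 36.6 CP10k in the far lung, 13.0 in the margin and 2.42 in the core, and all 10 of its genes were past 2-fold below the far lung in the core, with Cldn5 at 0.0390 times and Plvap at 0.127 times. Over spots the genes most like Cd36 were Epas1 (0.82), Ramp2 (0.80) and Inmt (0.79) in the metastatic section, and Ly6a (0.57), Sftpc (0.56) and Ager (0.56) in the control section. Epas1 and Ramp2 are genes of lung endothelium, and Sftpc and Ager of alveolar epithelium. The list of alveolar type 1 cell genes had the same order, at 36.8 CP10k in the far lung, 13.9 in the margin and 2.43 in the core. All 6 of its genes were past 2-fold below the far lung in the core, beside 20.4% of all genes. The pattern of Cd36 was thus not particular to endothelium. Of 4 genes of platelets, which also carry CD36, 3 were past 2-fold lower in the core than in the far lung (Ppbp, Itga2b and Gp9), and Pf4 was at 1.73 times the far lung. The part of platelets in the Cd36 level was not tested. The part of Cd36 that macrophages contribute cannot be told apart in these spots.

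**Figure D5:**
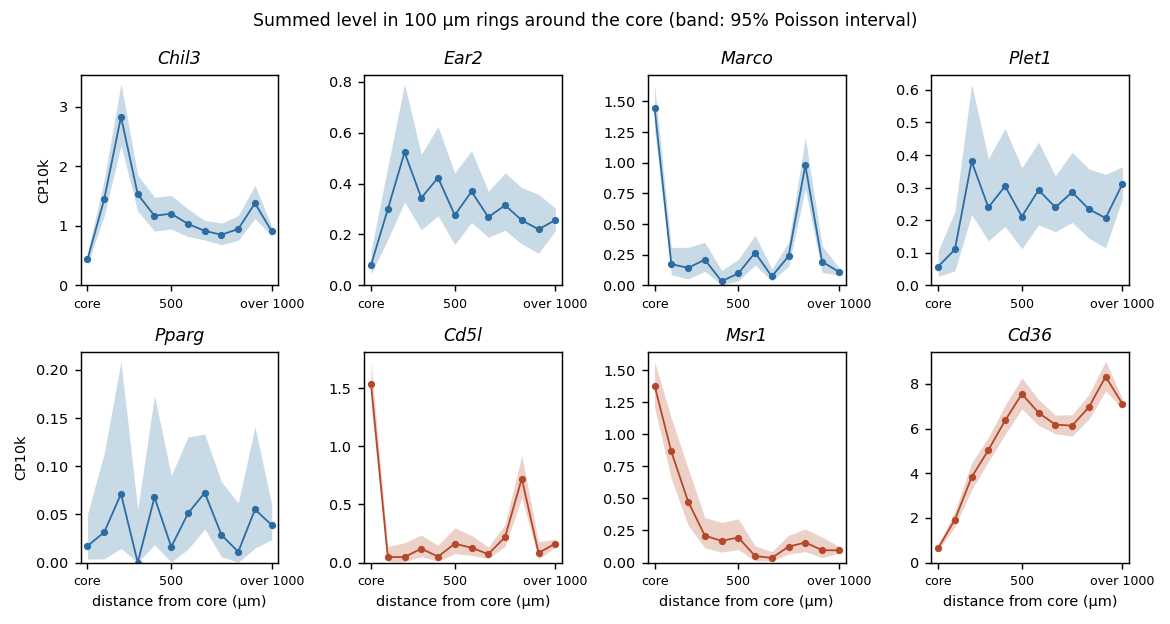
Points show the CP10k of each gene in the core and in successive 100 µm rings around it, the last point taking all spots over 1000 µm away, with 95% Poisson intervals as bands. Msr1 falls away within the first 300 µm, Chil3 has its maximum of 2.83 at 200 µm, Cd36 is higher in each ring up to 500 µm, and Marco and Cd5l have a second maximum at 900 µm, the ring that holds the far-lung spot with 74 counts of Marco.

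Further genes of the same pathways were examined as lists. For 14 other alveolar macrophage genes, 3 were past 2-fold lower in the far lung than in the control lung and none higher, with a median log2 ratio of -0.41. The shares over all genes were 7.3% lower and 2.15% higher, with a median of -0.19. In the margin 5 were past 2-fold above the far lung and 1 below (median 0.66), beside 23.2% and 9.54% of all genes. These included Itgax, which encodes CD11c and is also expressed by dendritic cells (1.65 CP10k against 0.232, ratio 7.09, 5.79 to 8.66). They also included Atp6v0d2, Ctsk and Il18, whereas Abcg1, a cholesterol exporter, had a ratio of 1.82 (1.40 to 2.34). Siglecf is the receptor by which alveolar macrophages are usually sorted. It was at 0.0305 CP10k in the control lung (62 counts), 0.0240 in the far lung (24) and 0.0379 in the margin (4). The margin did not differ from the far lung beyond counting error (ratio 1.57, 0.397 to 4.58). Siglecf had no count in the core, where 0 counts allow up to 0.0172 CP10k. In the core, 2 of the 14 genes were past 2-fold above the far lung (Il18 and Ctsk) and 3 below (Ear1, Ear10 and Krt79). These counts are near the shares over all genes, of which 22% were higher and 20.4% lower. Krt79 had 6 counts in the core, and its interval includes equal levels (ratio 0.499, 0.177 to 1.14).

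Of 18 other scavenger receptor genes, 17 were analysed here, and 16 had enough counts. In the far lung none was past 2-fold above the control lung and 2 were below (Scara3 and Scara5), with a median of -0.20. Over all genes, 2.15% were higher and 7.3% lower. The highest ratio among the 16 was that of Timd4 (1.56, 1.06 to 2.27), below those of Msr1 (3.18) and Marco (4.56). In the margin 4 were past 2-fold above the far lung and 2 below (median 0.04), and in the core 5 above and 4 below (median 0.13). These counts are near the shares over all genes, of which 23.2% were higher and 9.54% lower in the margin, and 22% higher and 20.4% lower in the core. Those above in the core included Axl, a receptor for apoptotic cells (2.30 CP10k against 0.598, ratio 3.84, 3.38 to 4.37), the lysosomal marker Cd68 (3.13, 2.59 to 3.78), the mannose receptor gene Mrc1 (3.13, 2.47 to 3.96) and Timd4 (5.29, 3.50 to 7.99). Of the 48 Timd4 counts of the core, 24 lay in the 9 spots rich in Marco and Cd5l. Scarf2 (0.390) and Colec12 (0.394) were below, and the endocytic receptor gene Lrp1 was within 2-fold (1.54, 1.40 to 1.68).

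Among 17 genes of LXR and PPAR lipid handling, none was past 2-fold higher in the far lung than in the control lung. Past 2-fold lower was 1 gene, Fabp4 (0.175, 0.148 to 0.206), and the median was -0.28. Over all genes, 2.15% were higher and 7.3% lower. The adipocyte list was also lower in the far lung, at 0.123 CP10k against 1.69, and the part of adipocytes in the Fabp4 level was not tested. In the margin 4 of the 17 genes were past 2-fold above the far lung, a share near the 23.2% of all genes. They were Angptl4 (2.71, 2.03 to 3.56) and Apoe (18.8 CP10k against 7.18, ratio 2.61, 2.48 to 2.75), with Plin2, which coats lipid droplets, at 2.45 (2.05 to 2.92) and Fabp5 at 2.37 (2.15 to 2.61). In the core none of the 17 was past 2-fold above the far lung and 6 were below (median -0.49), beside 22% and 20.4% of all genes. Those below included Pltp (0.350, 0.313 to 0.391) and Nr1h3, the gene of the LXRα receptor itself (0.297, 0.200 to 0.426).

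Many monocyte and interstitial macrophage genes had the direction of Msr1. Of 14 genes, 3 were past 2-fold above the control lung in the far lung (median 0.81), 12 above the far lung in the margin (median 1.67) and 13 above it in the core (median 1.87), with none below in any of the 3. Over all genes, 2.15%, 23.2% and 22% were higher. The direction was not particular to this list, since all 6 genes of T and NK cells were past 2-fold above the far lung in the margin and 3 in the core. C1qa, of the complement C1q, had 0.760 CP10k in the control lung, 1.51 in the far lung, 5.36 in the margin and 5.02 in the core. C1qb and C1qc had ratios of 4.54 and 4.98 for core over far lung, and Csf1r, the receptor that most macrophages share, 1.19 (1.01 to 1.39). The list as a whole was at 3.67 CP10k in the control lung, 6.05 in the far lung, 21.7 in the margin and 20.8 in the core. Msr1 was not level with it between margin and core, since its ratio of core over margin was 1.94.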

How the data were processed

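Visium counts of 1 control and 1 metastatic lung section were used. The deposited counts are whole unique-molecule counts for each gene in each tissue spot, not normalized. Per the file headers and the submitters' processing notes, they came from Space Ranger 1.3.1 and build mm10. Gene positions and upstream sequences are from RefSeq for GRCm38.p6, the same build. The members and gene lists were chosen with earlier results of these data known.

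Regions were computed from the metastatic section: log1p CP10k of the 2000 most variable genes with at least 50 counts, without the 8 genes and macrophage lists, 20 principal components and k-means with 5 clusters (seed 24). The core was the cluster with the highest score of 4T1 minus lung genes, in connected groups of at least 5 spots, and 2 other spots of it were in no region. Levels were summed counts over summed totals × 10000, so each is relative to all other RNA of the spots. Scgb1a1 took 15.2% of the counts in the control lung, 23.3% in the far lung, 1.18% in the margin and 0.249% in the core. A gene was called past 2-fold when its ratio was over 2 or under 0.5, among genes with at least 10 counts in the compared regions together. A count of 0 was read as allowing 3 counts. Spots are not replicates and no test was run.

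Named genes were the 8 members, at most 4 genes of each list with most counts, the 3 nearest genes by correlation (at least 200 counts) and close relatives of members. Outside this rule, genes of the lists that were past 2-fold, serous cavity, mesothelial and core genes and Saa3 were named after their values were seen. Doublet calling does not apply to spots. The calls and intervals were tested on simulated counts. The tools were Python 3.11.15, scipy 1.17.1, numpy 2.4.6, scikit-learn 1.9.0, pandas 2.3.3 and, for plots, matplotlib 3.10.9.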

Additional observations from a re-analysis of the deposited data

How the results depend on the processing

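No paired analysis was possible because each condition had 1 section. The cause of each change below was not tested, and counting intervals do not cover differences between animals or libraries. Of the results for single genes, 254 alternatives stayed within the counting interval, 63 moved beyond it and 3 reversed. The reversals were Cd36 in far over control lung (log2 ratio 0.066 with the core set by a marker score, -0.16 otherwise) and Ear2 in margin over far lung, which was 0.52 and became -0.19 with spots thinned to 5000 counts and -0.017 without airway-rich spots. The resident median for margin over far lung, 0.17, ranged from -0.33 (totals without abundant genes) to 0.66 (margin of the smaller core group), and for core over far lung, -1.29, from -1.82 (same totals) to -0.57 (marker score). The median of the comparators for core over far lung, 2.95, became 2.05 with the marker score, 3.23 with far lung over 1000 µm, 2.42 with totals that exclude abundant genes, 2.54 as a mean of spots and 2.48 without airway-rich spots. Alternatives chosen after seeing the data gave 0.90 without the spots rich in Marco and Cd5l and 3.43 without the far-lung spot with most Marco. For margin over far lung, -1.37, it became -0.53 with the marker score, -1.85 with a margin of 100 µm, -1.87 with the totals without abundant genes, -1.58 as a mean of spots, -1.77 without airway-rich spots and -1.05 without the rich spots. The members past 2-fold became 5 rather than 8 for core over far lung and 1 rather than 4 for margin over far lung with the marker score, 7 for the margin with thinned spots, and 5 rather than 3 for far over control lung at 1.5-fold. The share of all genes past 2-fold between far and control lung was 4.9% rather than 9.45% with at least 50 counts. Those totals leave out 450 genes, among them Scgb1a1, and move every log2 ratio by 0.14 for far over control lung, -0.50 for margin over far lung and -0.53 for core over far lung, and take Chil3 in the margin from 1.07 to 0.57. The smaller core group alone has 0 counts of 6 members and gives no median for the core. Pparg is limited by depth in every region.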
